A study of Mus musculus with 17 samples.

Results

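The NRF2 oxidant response genes are 10 genes by which cells sense and answer oxidants and electrophiles, described here in mouse fibroblasts and in cells of the extraembryonic endoderm lineage. They were chosen by symbol, and all 10 were found among the 24015 genes of the files: Nfe2l2, Keap1, Nqo1, Hmox1, Gclc, Gclm, Txnrd1, Srxn1, Gsr and Me1. RNA-seq counts were available for 17 libraries of CD-1 mouse cells in 5 groups. Mouse embryonic fibroblasts (MEF) were kept for 3 passages in MEF medium and gave 3 libraries. XEN cells are self-renewing lines of the extraembryonic endoderm lineage. Induced XEN (iXEN) cells arise, per the series title, under the reprogramming factors OSKM (Pou5f1, Sox2, Klf4 and Myc). XEN and iXEN cells spent 10 passages in embryonic stem cell (ESC) medium, and 5 more either in the same medium or in XEN medium. They gave 3 XEN and 4 iXEN libraries in each medium, named here by the number in their labels (XEN 1, 2 and 7, iXEN 1, 2, 6 and 9). The labels name no allele or other agent, and do not say whether a number stands for a clone.

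NRF2, the protein encoded by Nfe2l2, is a transcription factor that KEAP1 binds in the cytoplasm and hands to an ubiquitin ligase for breakdown. Oxidants and electrophiles modify cysteines of KEAP1, NRF2 then accumulates, enters the nucleus with small MAF proteins and binds antioxidant response elements of genes for glutathione synthesis, thioredoxin reduction, NADPH supply, quinone reduction and heme breakdown. Much of this control acts on protein, so the transcript levels of Nfe2l2 and Keap1 do not measure NRF2 activity.

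Promoters of 5 called members with an entry are shown because these genes share a regulator by textbook knowledge and differed in direction below. The sequences are RefSeq's for GRCm38.p6, each from 250 bases before to 50 bases after an annotated start, written 5′ to 3′ on the strand of the gene, and 7 of the 10 members had an entry. Capitals mark each match to the core of the antioxidant response element, TGACNNNGC, or to its reverse complement GCNNNGTCA.
Me1 promoter, chr9:86695865-86696164, minus strand: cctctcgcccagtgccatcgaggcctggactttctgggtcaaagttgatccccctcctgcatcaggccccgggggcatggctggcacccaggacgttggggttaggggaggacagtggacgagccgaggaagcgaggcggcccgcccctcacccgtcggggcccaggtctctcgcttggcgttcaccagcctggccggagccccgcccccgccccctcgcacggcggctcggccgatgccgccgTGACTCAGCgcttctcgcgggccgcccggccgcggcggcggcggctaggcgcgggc
Gclm promoter, chr3:122245307-122245606, plus strand: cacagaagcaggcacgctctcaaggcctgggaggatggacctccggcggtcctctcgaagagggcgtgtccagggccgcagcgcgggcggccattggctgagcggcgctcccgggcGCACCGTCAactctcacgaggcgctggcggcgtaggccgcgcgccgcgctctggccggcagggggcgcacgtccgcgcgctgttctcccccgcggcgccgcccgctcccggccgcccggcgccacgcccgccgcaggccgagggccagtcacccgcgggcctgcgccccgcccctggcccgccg
Srxn1 promoter, chr2:152105274-152105573, plus strand: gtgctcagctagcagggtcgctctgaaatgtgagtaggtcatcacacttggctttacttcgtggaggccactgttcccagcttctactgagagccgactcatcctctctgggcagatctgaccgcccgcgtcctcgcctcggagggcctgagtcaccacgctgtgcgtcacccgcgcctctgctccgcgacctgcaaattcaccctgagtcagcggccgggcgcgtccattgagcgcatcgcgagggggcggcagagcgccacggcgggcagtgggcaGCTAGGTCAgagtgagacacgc
Nfe2l2 promoter, chr2:75704614-75704913, minus strand: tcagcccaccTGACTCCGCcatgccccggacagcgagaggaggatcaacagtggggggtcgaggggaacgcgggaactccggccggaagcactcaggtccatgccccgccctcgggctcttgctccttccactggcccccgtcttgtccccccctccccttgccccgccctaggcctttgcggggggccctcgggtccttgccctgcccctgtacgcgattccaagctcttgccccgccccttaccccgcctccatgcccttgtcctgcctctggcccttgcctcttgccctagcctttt
Nqo1 promoter, chr8:107403156-107403455, minus strand: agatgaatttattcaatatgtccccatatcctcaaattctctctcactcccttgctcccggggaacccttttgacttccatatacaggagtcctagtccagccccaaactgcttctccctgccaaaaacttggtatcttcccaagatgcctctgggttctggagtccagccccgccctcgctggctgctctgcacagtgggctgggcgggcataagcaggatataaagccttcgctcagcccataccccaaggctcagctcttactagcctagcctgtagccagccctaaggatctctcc
The Me1 match, TGACTCAGC, begins 6 bases before the start and contains the AP-1 motif TGACTCA. That motif was looked for at the matches only. Away from its match, the Srxn1 window holds the reverse complement of that motif, TGAGTCA, more than once before the start. The Gclm and Nfe2l2 matches begin 134 and 240 bases before the start, and the Srxn1 match begins 28 bases after it. The Nqo1 window holds none, nor does a second Me1 promoter of the table, which is not shown. A match was found in 5 of 10 member promoters, beside 12.4% of all 32851 promoters in the table. Counted by gene, 5 of 7 members had a match, beside 14% of all 27025 genes. These are matches of letters in a short window and were not tested for binding.

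Each library held between 20071567 and 45914262 counts assigned to genes. Levels are given as CPM (a gene's share of its library's counts on a common scale), scaled by TMM factors over all 17 libraries, and can be compared between libraries for a gene but not between genes, since they are not per length. Of 8 XEN markers (Gata4, Gata6, Sox17, Sox7, Foxa2, Dab2, Lama1, Pdgfra) the summed level was 781 to 985 CPM in MEF and 2778 to 32028 CPM in the XEN and iXEN libraries. On average the sum was mostly Lama1 in XEN and iXEN cells (12242 and 24832 CPM in ESC medium) and mostly Pdgfra in MEF (633 CPM). Of 10 fibroblast markers (among them Thy1, Col1a1, Postn, Lum and Meox2) it was 35611 to 49915 CPM in MEF. It was 0.532 to 318 CPM in 11 of the 14 XEN and iXEN libraries, but 7640 CPM in XEN 1 in ESC medium and 2278 and 1016 CPM in iXEN 2 and 9 in XEN medium. Values without these 3 libraries are given where an edgeR call or a direction changes. DESeq2 was not run without them. In bulk RNA, more cells of a type and more RNA per cell cannot be told apart.

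**Figure D1:**
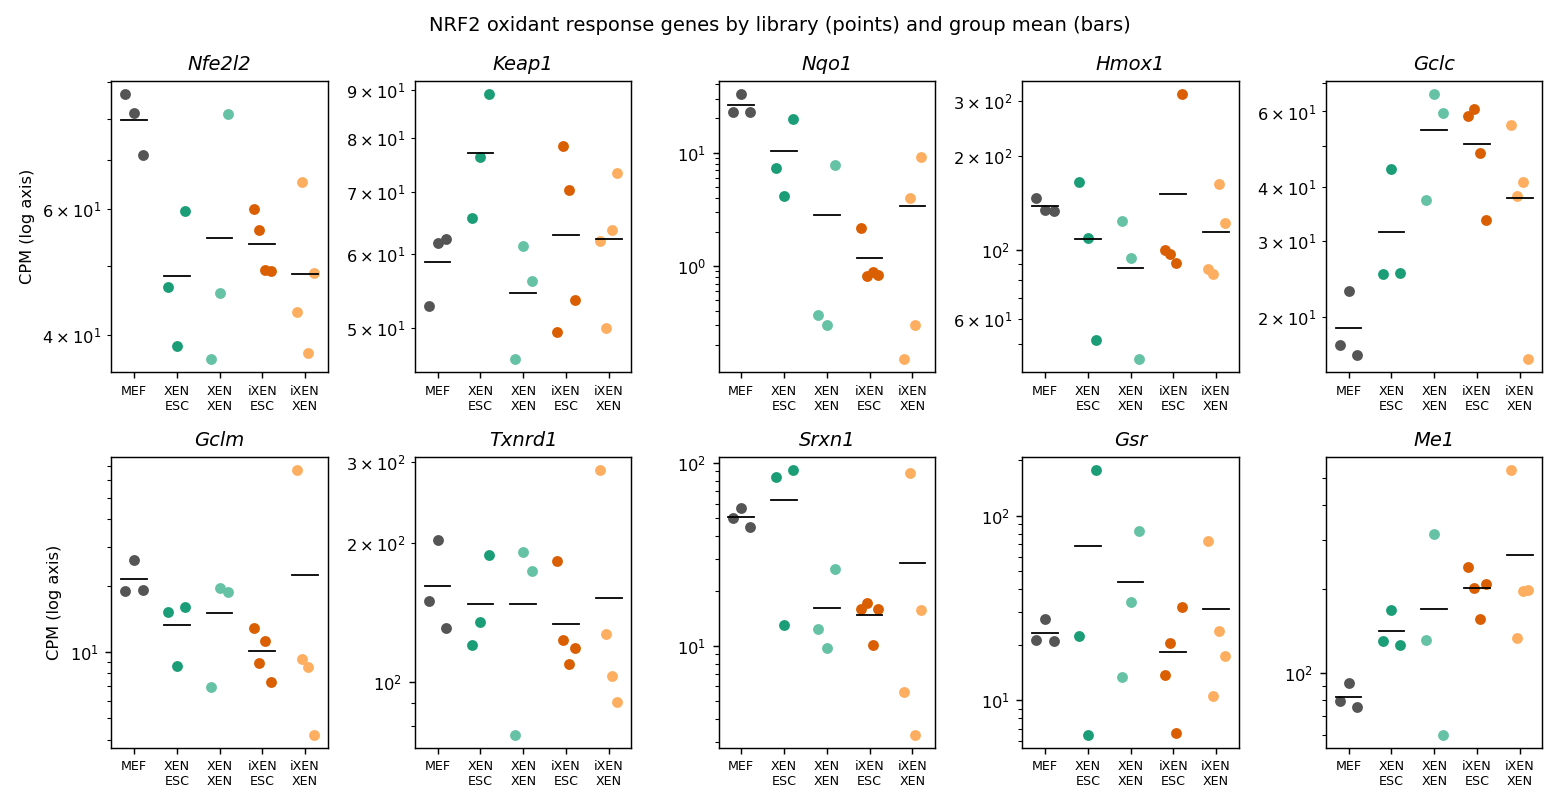
CPM of the 10 genes on log axes, with 1 panel per gene and 1 point per library. Bars are means of the 5 groups (3 MEF, 3 XEN and 4 iXEN libraries in each medium). Nqo1 is lower in all 14 XEN and iXEN libraries than in any MEF library, and 13 of 14 lie above MEF for Gclc and for Me1.

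The comparisons with MEF asked how far the program had moved from fibroblasts. Medium and passages differ together with cell type there and cannot be told apart from it, and the 4 comparisons share the same MEF libraries. In iXEN cells in ESC medium the members did not move in 1 direction. Nqo1, Srxn1, Gclm and Nfe2l2 fell, Gclc and Me1 rose, and Keap1, Hmox1, Txnrd1 and Gsr did not pass the test. These 6 called of 10 stand beside 46.7% of 14352 genes called by edgeR's quasi-likelihood test at a Benjamini-Hochberg adjusted p under 0.05 (20.8% higher, 25.9% lower). The median log2 fold change was -0.27 over the members and 0.03 over all genes tested. In the other groups fewer members passed: 1 of 10 in XEN cells in ESC medium (Me1, background 25% of 14001 genes, 11.4% higher and 13.7% lower), 1 in iXEN cells in XEN medium (Me1, background 32.6% of 14438, 17.7% higher and 14.9% lower) and 2 in XEN cells in XEN medium (Gclc and Srxn1, background 47.5% of 14390, 23% higher and 24.5% lower). The CPM ranges of a group and of MEF did not overlap for 6 members in iXEN and 6 in XEN cells in ESC medium (54.6% and 53.3% of genes tested), and for 3 members in iXEN and 4 in XEN cells in XEN medium (51.3% and 63.4%). The labels do not say that libraries came from separate cultures, though the design text calls them biological replicates, so the p-values measure the spread between these libraries.

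**Figure D2:**
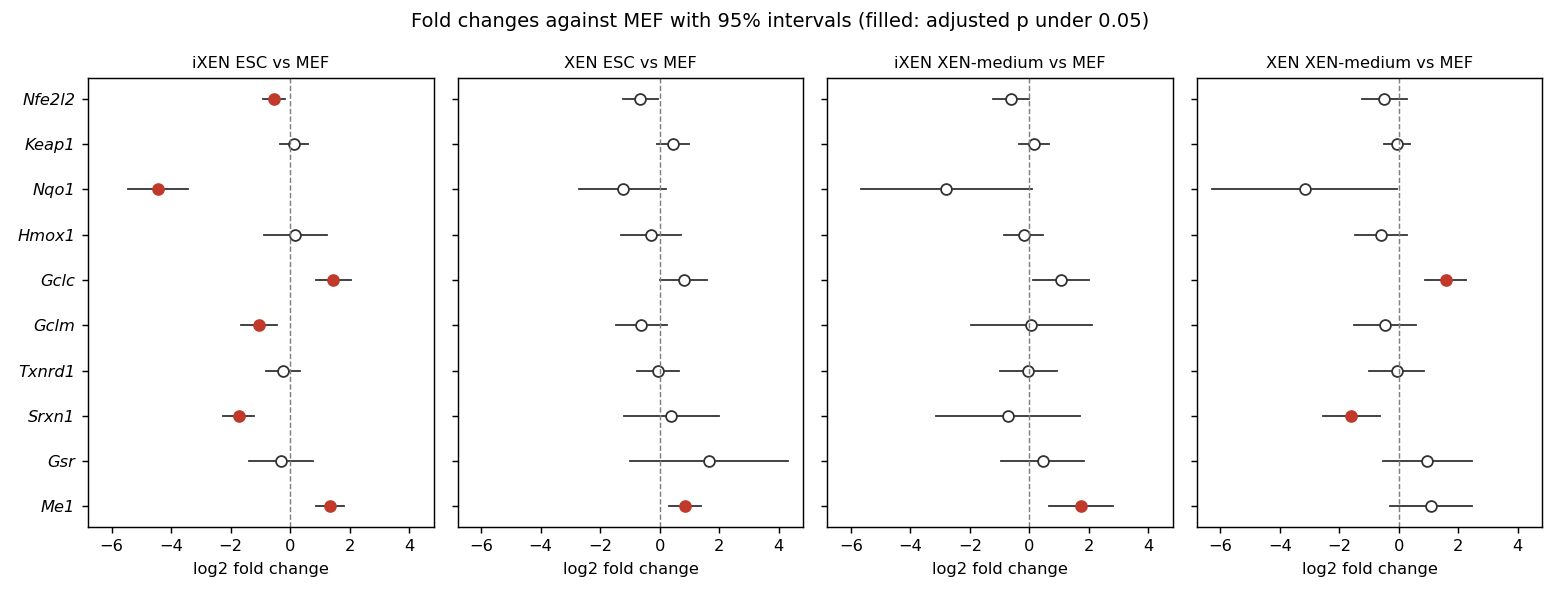
Log2 fold changes against MEF with 95% intervals for the 10 genes, with 1 panel for each of the 4 comparisons. Filled points passed the adjusted p under 0.05. Nqo1 lies to the left and Gclc and Me1 to the right of 0 in all 4 panels, and the intervals are widest for Nqo1 in both groups in XEN medium and for Gsr in XEN cells in ESC medium.

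Nfe2l2, the gene of the transcription factor itself, was at 86.5, 81.4 and 71.3 CPM in MEF. iXEN cells in ESC medium held 59.9, 56.0, 49.2 and 49.3 CPM (libraries 1, 2, 6 and 9), and XEN cells in ESC medium 46.7, 38.7 and 59.6 CPM (1, 2 and 7). All 7 of these libraries lay below MEF. The log2 fold change of iXEN cells was -0.54 (SE 0.16, edgeR adjusted p = 0.0244), and that of XEN cells -0.65 (95% interval -1.25 to -0.06, adjusted p = 0.0959). The iXEN call was lost without MEF 1 (adjusted p = 0.113), MEF 2 (0.0895), iXEN 2 (0.0575) or iXEN 9 (0.0575), and over all alternatives the adjusted p ran from 0.00739 to 0.144. In XEN medium the levels were 43.1, 65.3, 37.8 and 48.8 CPM in iXEN 1, 2, 6 and 9 and 37.1, 45.8 and 81.1 CPM in XEN 1, 2 and 7. XEN 7 was the single library of 14 inside the MEF range. The log2 fold changes in XEN medium were -0.62 (adjusted p = 0.103) for iXEN and -0.49 (0.229) for XEN cells, and were called at -0.80 (0.0327) without iXEN 2, at -0.95 (0.0155) without iXEN 2 and 9, and at -0.89 (0.00723) without XEN 7.

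Keap1, the sensor that holds NRF2 back, ranged from 46.3 to 89.1 CPM over the 17 libraries, the smallest ratio of highest to lowest library among the members (1.92-fold). Its mean was 58.9 ± 5.30 CPM in MEF (SD, n = 3), 77.0 ± 11.8 in XEN cells and 62.9 ± 13.7 in iXEN cells in ESC medium (SD, n = 3 and 4), and 54.6 ± 7.60 and 62.2 ± 9.63 CPM in XEN medium. None of the 4 comparisons with MEF called it, and the 95% interval of its log2 fold change was -0.33 to 0.59 in iXEN cells in ESC medium, which leaves room for a change of that size. XEN cells in ESC medium, at 65.6, 76.3 and 89.1 CPM, all lay above MEF (52.8 to 62.3 CPM). Such groups did not overlap for 53.3% of genes tested. The log2 fold change of these XEN cells was 0.36 to 0.60 over the alternatives, and none called it.

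Nqo1 encodes a quinone reductase that is a textbook readout of NRF2. MEF held 22.9, 32.7 and 22.8 CPM. iXEN cells in ESC medium held 2.18, 0.813, 0.830 and 0.882 CPM (libraries 1, 2, 6 and 9). The groups did not overlap, as was the case for 54.6% of the genes tested, and Nqo1 fell by 4.44 on the log2 scale (SE 0.44, edgeR adjusted p = 8.67e-05), or 21.7-fold. The call held in all 12 alternatives run for it (adjusted p 4.09e-23 to 0.0198, log2 fold change -4.92 to -4.24). XEN cells in ESC medium held 7.34, 4.16 and 19.8 CPM (1, 2 and 7), all below MEF, with a log2 fold change of -1.25 (95% interval -2.71 to 0.22, adjusted p = 0.170). Without XEN 7 it was -2.01 (0.0182), and without XEN 1, which held fibroblast transcripts, -1.04 (0.316).

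In XEN medium the Nqo1 levels spread widely among libraries of the same cell type. XEN 1 and 2 held 0.367 and 0.303 CPM, against 7.72 CPM in XEN 7. iXEN 1 and 6 held 0.152 and 0.301 CPM, which are 4 and 10 counts, against 4.01 and 9.18 CPM in iXEN 2 and 9. All 7 libraries lay below MEF, at log2 fold changes of -3.17 (SE 1.28, adjusted p = 0.0843) for XEN and -2.80 (SE 1.24, 0.117) for iXEN cells. Without XEN 7 the XEN value was -6.22 (9.88e-05), and without iXEN 9 the iXEN value was -4.02 (0.0489). The 2 high iXEN libraries are those with fibroblast transcripts in XEN medium, and without both the log2 fold change was -6.75 (0.00029).

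Srxn1, sulfiredoxin, repairs overoxidized peroxiredoxins. It was at 50.2, 56.6 and 44.8 CPM in MEF and at 15.9, 17.3, 15.8 and 10.1 CPM in iXEN 1, 2, 6 and 9 in ESC medium. These groups did not overlap, and Srxn1 fell by 1.74 on the log2 scale (SE 0.23, adjusted p = 0.000414), or 3.33-fold. With all 17 libraries in 1 edgeR fit the call was lost (-1.75, adjusted p = 0.146). XEN cells in ESC medium split, with 84.1 and 91.5 CPM in XEN 1 and 7 above MEF and 13.0 CPM in XEN 2 far below. Their log2 fold change was 0.39 (95% interval -1.21 to 1.99), 1.01 (0.0154) without XEN 2 and 0.14 (0.909) without XEN 1.

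In XEN medium Srxn1 was at 12.4, 9.76 and 26.3 CPM in XEN 1, 2 and 7, all below MEF, and fell by 1.60 on the log2 scale (SE 0.40, adjusted p = 0.0191). Leaving out MEF 1, 2 or 3 ended that call (adjusted p = 0.0591, 0.0644 and 0.0530). iXEN cells in XEN medium held 5.58, 88.6, 3.28 and 15.8 CPM (1, 2, 6 and 9), and iXEN 2 alone was above MEF. Their log2 fold change was -0.71 (SE 1.04, 0.616), -2.51 (0.0222) without iXEN 2 and -3.49 (0.000636) without iXEN 2 and 9.

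**Figure D3:**
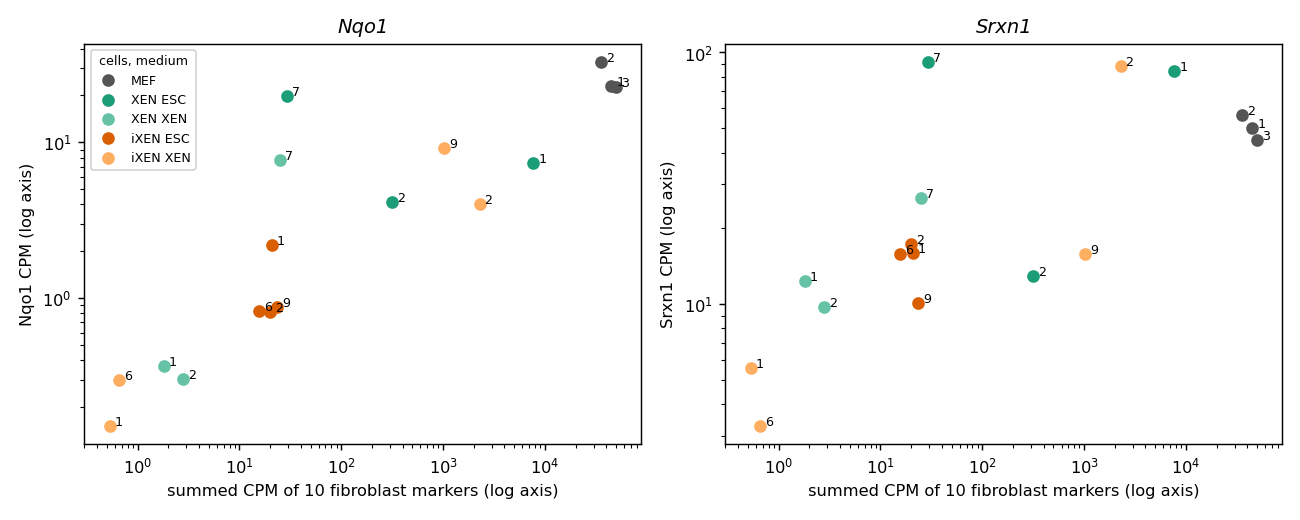
CPM of Nqo1 and of Srxn1 against the summed CPM of 10 fibroblast markers, both on log axes, with 1 point per library and its label number. Among iXEN libraries in XEN medium, 2 and 9 are high in the markers (2278 and 1016 CPM) and in Nqo1 (4.01 and 9.18 CPM); XEN 7 in ESC medium has 29.2 CPM of the markers and 19.8 CPM of Nqo1.

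Nqo1 and the fibroblast markers were therefore high together in some libraries and not in others. XEN 7 had 29.2 CPM of the markers in ESC medium and 25.2 CPM in XEN medium, close to iXEN 1 in ESC medium (20.8 CPM), but 19.8 and 7.72 CPM of Nqo1 against 2.18 CPM. The part of fibroblast transcripts in the Nqo1 and Srxn1 levels was not tested. XEN 7 also had the highest summed level of 5 epithelial markers in ESC medium, 6241 CPM, against 564 to 2137 CPM in the other 6 libraries of that medium. Its summed XEN markers, a sum in which Lama1 weighs most in the group means, were the lowest of the XEN libraries in both media. They were at 2778 CPM against 13403 and 28184 CPM in ESC medium and at 4562 CPM against 19433 and 12142 CPM in XEN medium. The 5 endothelial markers of XEN 7 summed to 1029 and 1499 CPM, against 190.6 to 302 CPM in the other XEN libraries. The part of this in the Nqo1, Gsr, Me1 and Nfe2l2 levels of XEN 7 was not tested.

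In the glutathione branch Gclc and Gclm moved in opposite directions in iXEN cells in ESC medium. Gclc encodes the catalytic and Gclm the modifier subunit of glutamate-cysteine ligase, the rate-limiting enzyme of glutathione synthesis. Gclc was at 17.2, 23.0 and 16.3 CPM in MEF and at 58.7, 60.9, 33.7 and 48.2 CPM in iXEN 1, 2, 6 and 9 in ESC medium. It rose by a log2 fold change of 1.45 (SE 0.26, adjusted p = 0.00195), and this call held in all 12 alternatives run for it (0.0155 at most). Gclm was at 18.9, 26.2 and 19.2 CPM in MEF and at 12.8, 8.90, 7.33 and 11.2 CPM in the same iXEN libraries. It fell by 1.05 on the log2 scale (SE 0.27, 0.0121). Neither gene's groups overlapped, and the Gclm call was lost without MEF 2 (-0.88, adjusted p = 0.0678), with all 17 libraries in 1 edgeR fit (-1.07, 0.277) and with the replicate block (-1.02, 0.0707). That block joins libraries by label number, and only numbers 1 and 2 occur in both groups.

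XEN cells in ESC medium held 25.2, 44.1 and 25.3 CPM of Gclc (libraries 1, 2 and 7) and 15.2, 8.69 and 16.0 CPM of Gclm. Both sets lay outside the MEF range, above it for Gclc and below it for Gclm, but neither was called (log2 fold changes 0.80, adjusted p = 0.117, and -0.62, 0.232). Gclc was called without XEN 7 (0.0488). In XEN medium XEN cells held 37.4, 65.8 and 59.6 CPM of Gclc, which rose by 1.57 (SE 0.28, 0.00612), and 6.93, 19.5 and 18.7 CPM of Gclm (-0.46, SE 0.43, 0.405).

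iXEN cells in XEN medium were the most uneven group for this enzyme. Gclc was at 55.9, 38.1, 41.2 and 16.0 CPM in iXEN 1, 2, 6 and 9, with a log2 fold change of 1.06 (SE 0.40, adjusted p = 0.0771) of 1.30 (0.0137) without iXEN 9, and of 1.39 (0.00777) without iXEN 2 and 9, the libraries with fibroblast transcripts. Gclm was at 66.9, 9.28, 8.57 and 4.23 CPM, so iXEN 1 held the highest and iXEN 9 the lowest level of all 17 libraries. Its log2 fold change was 0.06 (95% interval -1.97 to 2.10), and without iXEN 1 it turned to -1.43 (0.0272).

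**Figure D4:**
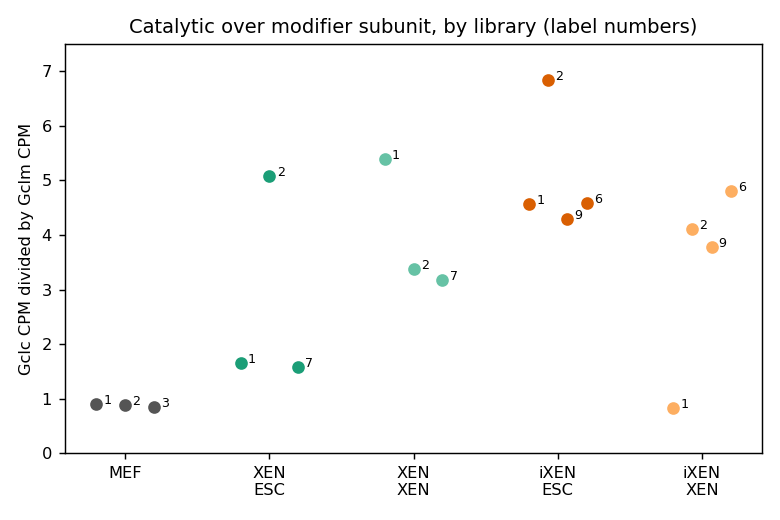
Ratio of Gclc CPM to Gclm CPM in each library, with label numbers, by group. MEF lie between 0.851 and 0.912, and iXEN 1 in XEN medium, at 0.835, is the single XEN or iXEN library below 1.58.

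The ratio of the 2 subunits within a library was computed after these values were seen and carries no test. It was 0.912, 0.878 and 0.851 in MEF and 1.58 or more in 13 of the 14 XEN and iXEN libraries. In ESC medium it was 4.57, 6.84, 4.59 and 4.30 in iXEN 1, 2, 6 and 9 and 1.66, 5.08 and 1.58 in XEN 1, 2 and 7. In XEN medium it was 5.40, 3.38 and 3.18 in XEN 1, 2 and 7 and 4.11, 4.80 and 3.78 in iXEN 2, 6 and 9. The exception, iXEN 1 in XEN medium, was at 0.835.

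Gsr, glutathione reductase, returns oxidized glutathione to its reduced form. It was at 21.3, 27.6 and 20.9 CPM in MEF and spread 27.0-fold over the XEN and iXEN libraries. In ESC medium XEN 2 held 6.54 CPM and XEN 7 held 177 CPM, with 22.3 CPM in XEN 1, so the group lay on both sides of MEF (log2 fold change 1.64, 95% interval -1.01 to 4.30). Without XEN 7 the value turned to -0.49 (adjusted p = 0.534). iXEN 1, 2, 6 and 9 held 13.6, 20.5, 32.0 and 6.69 CPM in ESC medium. In XEN medium XEN 7 and iXEN 1 were high at 83.0 and 72.7 CPM, and the other 5 libraries were at 10.5 to 34.1 CPM. No comparison with MEF called Gsr, except XEN cells in XEN medium without XEN 1 (1.39 against 0.95, adjusted p = 0.0375).

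Txnrd1, cytosolic thioredoxin reductase, keeps thioredoxin in its active form. Its group means differed by 1.21-fold at most, from 133 ± 33.5 CPM in iXEN cells in ESC medium (SD, n = 4) to 161 ± 37.6 CPM in MEF (SD, n = 3). The log2 fold changes against MEF lay between -0.23 and -0.04, with adjusted p of 0.467 to 0.955, and the 95% interval in iXEN cells in ESC medium was -0.80 to 0.33. Its highest level was 288 CPM in iXEN 1 in XEN medium and its lowest 76.7 CPM in XEN 1 in XEN medium.

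Me1, cytosolic malic enzyme, makes NADPH for reductases and for fatty acid synthesis. MEF held 79.2, 91.8 and 75.8 CPM. iXEN 1, 2, 6 and 9 in ESC medium held 241, 202, 209 and 156 CPM, and Me1 rose by a log2 fold change of 1.33 (SE 0.20, adjusted p = 0.000912; 1.32 and 0.0579, not called, with all 17 libraries in 1 edgeR fit). XEN 1, 2 and 7 in ESC medium held 129.9, 168 and 127 CPM, a rise of 0.84 (SE 0.22, 0.0382). No library of either group overlapped MEF. The XEN call was lost without MEF 1, 2 or 3 (adjusted p = 0.132, 0.117 and 0.165).

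In XEN medium iXEN 1, 2, 6 and 9 held 536, 134, 196 and 198 CPM of Me1, all above MEF, a rise of 1.74 (SE 0.47, adjusted p = 0.0276). That call was also lost without MEF 1, 2 or 3 (0.104, 0.0816 and 0.107). XEN 1, 2 and 7 in XEN medium held 132, 317 and 60.2 CPM. XEN 7 lay below MEF, the single such library, and the log2 fold change was 1.09 (SE 0.57, 0.157), or 1.50 (0.0138) without it.

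Hmox1, heme oxygenase, breaks heme down to biliverdin, iron and carbon monoxide. It was at 147, 134 and 133 CPM in MEF. In ESC medium iXEN 1, 2 and 9 held 100.1, 97.2 and 91.1 CPM while iXEN 6 held 316 CPM, the highest of the 17 libraries, and XEN 1, 2 and 7 held 165, 109 and 51.3 CPM. The log2 fold change of iXEN cells was 0.17 (95% interval -0.88 to 1.23, adjusted p = 0.782), and without iXEN 6 it turned to -0.49 (0.0114). In XEN medium XEN 1, 2 and 7 held 124, 94.3 and 44.8 CPM, all below MEF (-0.61, 0.202), and iXEN 1, 2, 6 and 9 held 86.7, 84.1, 164 and 122 CPM (-0.19, 0.623). Hmox1 is also abundant in macrophages. The summed level of 8 macrophage markers was 35.0 to 111 CPM in MEF and 3.97 to 29.3 CPM in the XEN and iXEN libraries, and 29.3 CPM belonged to iXEN 6 in ESC medium, where Ptprc, C1qa and Emr1 were at 0 in the whole group. The part of such cells in the Hmox1 level was not tested.

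iXEN and XEN cells were then compared within each medium, which asks how alike the induced and the established lines are. In ESC medium Nqo1 lay lower in every iXEN library (0.813 to 2.18 CPM) than in any XEN library (4.16 to 19.8 CPM). The log2 fold change was -3.19 (95% interval -4.81 to -1.57, unadjusted p = 0.00185 in the edgeR fit), and the adjusted p was 0.238. Of all genes tested, 9.93% separated the groups in this way. Srxn1 lay at -2.14 (95% interval -3.51 to -0.76, adjusted p = 0.319), with XEN 2, at 13.0 CPM, inside the iXEN range of 10.1 to 17.3 CPM. Without XEN 2 it was called at -2.59 (0.0244). Without XEN 1, Nqo1 lay at -3.38 (0.386) and Srxn1 at -1.86 (0.455). edgeR called 0 of 10 members and 0% of 12944 genes here; 2 members and 1770 genes had an unadjusted p under 0.05, and DESeq2 called 529 genes, among them Nqo1 (adjusted p = 0.000461) and Srxn1 (0.0356).

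The other members differed less between the cell types in ESC medium. Gclc lay at 0.65 (95% interval -0.09 to 1.39), Me1 at 0.49 (-0.09 to 1.07), Hmox1 at 0.45 (-0.88 to 1.78), Nfe2l2 at 0.11 (-0.47 to 0.69), Txnrd1 at -0.18 (-0.84 to 0.49), Keap1 at -0.33 (-0.92 to 0.27), Gclm at -0.44 (-1.33 to 0.45) and Gsr at -1.96 (-4.25 to 0.34). Gsr turned to 0.31 without XEN 7, and Hmox1 to -0.22 without iXEN 6. In XEN medium edgeR called 0 of 10 members and 0% of 13263 genes, 0 members and 544 genes had an unadjusted p under 0.05, and DESeq2 called 0 members and 137 genes. The ranges of all 10 members overlapped there, while 4.49% of genes tested had groups that did not overlap. The log2 fold changes ran from -0.52 for Gclc to 0.84 for Srxn1, and that of Nqo1 was 0.31 with an interval of -3.34 to 3.95. Without the 2 iXEN libraries that held fibroblast transcripts, Nqo1 lay at -3.62 (0.983) and Srxn1 at -1.89 (0.983), in both cases against 3 XEN libraries that differed among themselves.

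The change of medium was followed through libraries with the same cell type and number. The labels do not say that a number is 1 line. In its deviations from the group mean, XEN 1 in XEN medium correlated more with XEN 2 in ESC medium (0.45) than with XEN 1 (0.24). A difference within a number therefore need not be a change of 1 line. In XEN cells Nqo1 was lower in XEN medium for each number: 7.34 against 0.367 CPM in XEN 1, 4.16 against 0.303 CPM in XEN 2 and 19.8 against 7.72 CPM in XEN 7. Srxn1 was also lower for each, at 84.1 against 12.4, 13.0 against 9.76 and 91.5 against 26.3 CPM. Keap1 was at 65.6 against 46.3, 76.3 against 61.3 and 89.1 against 56.1 CPM, and it was the single member whose groups did not overlap, as for 12.5% of genes tested. Gclc was higher in XEN medium for each number, at 25.2 against 37.4, 44.1 against 65.8 and 25.3 against 59.6 CPM.

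None of these passed the test. The log2 fold changes of XEN over ESC medium in XEN cells were -1.94 for Nqo1 (95% interval -5.17 to 1.29, adjusted p = 0.817), -2.01 for Srxn1 (-3.83 to -0.18, 0.800), -0.53 for Keap1 (-1.17 to 0.11, 0.800) and 0.75 for Gclc (-0.13 to 1.63, 0.800). The edgeR fit behind these values did not pair libraries by number. With the number as a replicate block in edgeR, Nqo1 lay at -3.17 (SE 0.82, unadjusted p = 0.00845, adjusted p = 0.567). Srxn1 lay at -1.70 there (unadjusted p = 0.0183, adjusted p = 0.567). Without XEN 1 in ESC medium they lay at -2.10 and -1.70 (0.999 for both). Without the block, edgeR called 0 of 10 members and 0% of 13241 genes. In that fit 1 member (Srxn1) and 746 genes had an unadjusted p under 0.05. DESeq2, also without the block, called 0 members and 89 genes. Hmox1 was lower in XEN medium for each number by 0.20 to 0.42 on the log2 scale, while Gclm, Txnrd1, Gsr, Me1 and Nfe2l2 were higher for some numbers and lower for others.

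**Figure D5:**
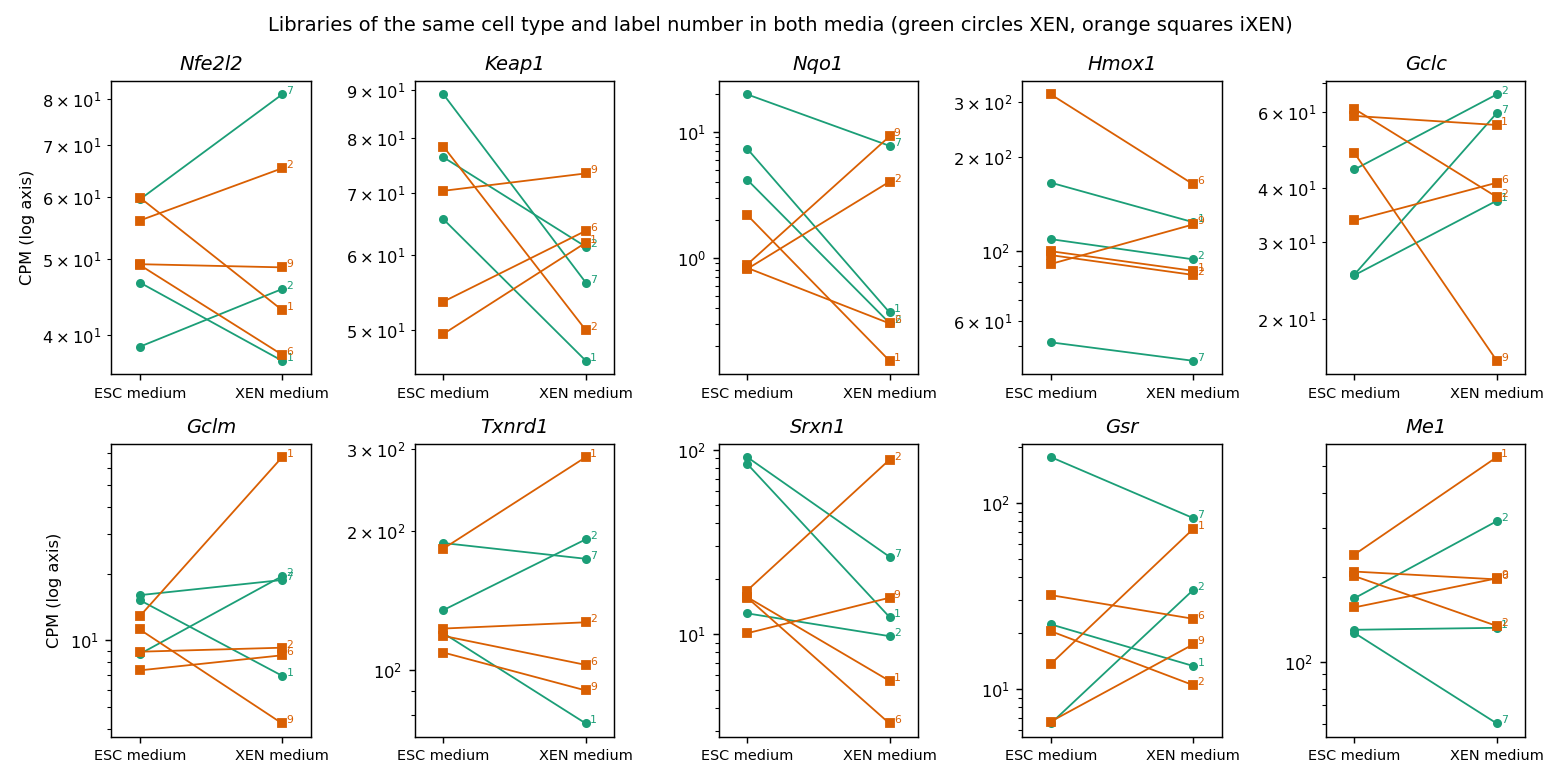
CPM of the 10 genes on log axes in ESC and in XEN medium, with lines joining libraries of the same cell type and label number (green circles XEN 1, 2 and 7, orange squares iXEN 1, 2, 6 and 9). For Nqo1 and Srxn1, all XEN lines and those of iXEN 1 and 6 slope down, while those of iXEN 2 and 9 slope up.

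In iXEN cells libraries of the same number are set side by side, but their profiles correlated only weakly (-0.06 to 0.19). The labels do not say that a number is 1 line, so a difference need not be a change of 1 line. Nqo1 was at 2.18 CPM in ESC medium against 0.152 CPM in XEN medium for number 1 and at 0.830 against 0.301 CPM for 6, but at 0.813 against 4.01 CPM for 2 and at 0.882 against 9.18 CPM for 9. Srxn1 showed the same split, at 15.9 against 5.58 CPM for number 1, 15.8 against 3.28 for 6, 17.3 against 88.6 for 2 and 10.1 against 15.8 CPM for 9. iXEN 2 and 9 in XEN medium are the libraries with fibroblast transcripts, and whether these account for the split was not tested. Over the group, the log2 fold change was 1.58 (95% interval -0.93 to 4.08) for Nqo1 and 0.96 (-1.03 to 2.95) for Srxn1. Without iXEN 2 and 9 in XEN medium both turned, to -2.37 (adjusted p = 0.155) and -1.76 (0.102).

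The library iXEN 1 in XEN medium stood apart, with 66.9 CPM of Gclm, 288 of Txnrd1, 72.7 of Gsr and 536 CPM of Me1. It held the highest Gclm, Txnrd1 and Me1 and the lowest Nqo1 of all 17 libraries. It also had the fewest genes detected (15176) and the highest shares of counter lines (33.1%) and of reads not mapped uniquely (24.6%), and their part in these levels was not tested. edgeR called 0 of 10 members and 0% of 12920 genes between the media in iXEN cells; 0 members and 3018 genes had an unadjusted p under 0.05, and DESeq2 called 0 members and 1637 genes. Keap1 lay at 0.01 (95% interval -0.53 to 0.55) and Nfe2l2 at -0.11 (-0.66 to 0.43).

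The interaction of cell type and medium tests whether the response to XEN medium differed between iXEN and XEN cells. edgeR called 0 of 10 members and 0% of 14357 genes; 2 members (Gclc and Srxn1) and 2131 genes had an unadjusted p under 0.05, and DESeq2 called 0 members and 488 genes. The interaction was 3.49 for Nqo1 (95% interval -0.62 to 7.59, adjusted p = 0.394), 2.97 for Srxn1 (0.05 to 5.89, 0.330) and -1.16 for Gclc (SE 0.54, 0.335). Without the 3 libraries that held fibroblast transcripts, the values of Nqo1 and Srxn1 were -0.26 (0.976) and -0.04 (0.995).

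How the members varied together was described over the 17 libraries, which share 5 group means, as Pearson correlations of log2 CPM. Gclm and Txnrd1 had the highest of the 45 pairs (0.86, and 0.88 over the 14 XEN and iXEN libraries), then Nqo1 and Srxn1 (0.81 and 0.78). Nqo1 and Me1 had the lowest (-0.76 and -0.64). Gclm and Txnrd1 were both highest in iXEN 1 in XEN medium (66.9 and 288 CPM), and their correlation without that library was not computed. Gclc and Gclm, whose products form 1 enzyme, were at 0.13 and 0.49, and Hmox1 lay between -0.41 and 0.12 with the other members over the 17 libraries. Among 12767 other genes with a mean of at least 1 CPM, those most like Nqo1 over the 17 libraries were Cpe (0.97), Thsd4, Fam20a, Atoh8 and Emp1 (0.96 each). Cpe, a carboxypeptidase of prohormone processing, was at 196 CPM on average in MEF, at 143 and 3.30 CPM in XEN and iXEN cells in ESC medium and at 59.8 and 55.8 CPM in XEN medium. Those most like Hmox1 were Ppp1r15a and Extl1 (0.89 each), Ermard (0.88), and Phgdh and Aars (0.87 each).

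The wider pathway was described by 6 lists written from general knowledge, of which 83 of 84 symbols were found. In iXEN cells in ESC medium against MEF, 1 of 12 regulators rose and 2 fell, where 20.8% of all genes tested rose and 25.9% fell, the background of all 6 lists here. The CNC family factors Nfe2l3 (-1.40, SE 0.41, edgeR adjusted p = 0.0222) and Bach2 (-1.74, SE 0.53, 0.0263) fell, and the small MAF gene Mafg rose (0.98, SE 0.33, 0.0406). Nfe2l3 averaged only 0.747 CPM in MEF and 0.274 CPM in these iXEN cells, so the size of its fall is uncertain. Of 20 glutathione genes tested 5 rose and 4 fell. Gpx7, a glutathione peroxidase of the endoplasmic reticulum, had 3 counts over the iXEN libraries and 4954 over MEF, a ratio of 2279 (exact 95% counting interval 779 to 11053), and Mgst1, a microsomal glutathione transferase, fell by 7.02 on the log2 scale (SE 0.85, 0.000253). Of 14 thioredoxin and peroxiredoxin genes 0 rose and 1 fell, Prdx5 (-1.23, SE 0.27, 0.00628).

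Among NADPH genes 0 of 9 rose and 3 fell, Idh1 and, with smaller adjusted p, G6pdx (-1.05, SE 0.21, edgeR adjusted p = 0.00395), which feeds the pentose phosphate pathway, and Nnt (-1.14, SE 0.30, 0.0150), the mitochondrial transhydrogenase. Me1 rose in the same comparison. Of 16 detoxification genes tested 1 rose, Cbr1, and 7 fell. Sod3, the extracellular superoxide dismutase, had 1 count over the iXEN libraries and 1460 over MEF, a ratio of 2015 (exact 95% counting interval 361 to 79625), and Aldh2, an aldehyde dehydrogenase, fell by 2.43 on the log2 scale (SE 0.21, 4.1e-05). Of 11 heme and iron genes 1 rose, Blvrb, and 5 fell, led by the heme transporter Slc48a1 (-3.11, SE 0.22, 1.43e-05) and the last enzyme of heme synthesis, Fech (-0.66, SE 0.15, 0.00764). The median log2 fold changes of the 6 lists lay between -0.32 and 0.02, beside 0.03 over all genes tested.

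In XEN cells in ESC medium 11.4% of all genes tested rose and 13.7% fell against MEF. Of 12 regulators 1 was called, Rbx1 (1.11, SE 0.30, edgeR adjusted p = 0.0400), a subunit of the ligase that takes up NRF2, which rose. Of 19 glutathione genes tested 4 rose and 1 fell, led by the transferases Mgst3 (2.93, SE 0.39, 0.00702) and Gsta4 (2.32, SE 0.32, 0.00755). Prdx4, a peroxiredoxin of the secretory pathway, rose (1.01, SE 0.23, 0.0276) among 14 thioredoxin genes, where 0 fell. Of 9 NADPH genes 1 rose, Pgls (2.62, SE 0.61, 0.0278), and 3 fell, led by Idh1 (-1.37, SE 0.24, 0.0132). Of 16 detoxification genes 2 rose, led by the carbonyl reductase Cbr1 (1.56, SE 0.25, 0.0103), and 3 fell, led by Aldh2 (-1.79, SE 0.32, 0.0141). Among 11 heme and iron genes the biliverdin reductase Blvrb rose (1.82, SE 0.26, 0.00834) and 0 fell. Without XEN 1, the library with fibroblast transcripts, 5 of 20 glutathione genes rose and 4 fell, 2 of 9 NADPH genes rose and 1 fell, 2 of 16 detoxification genes rose and 4 fell, and 2 of 11 heme and iron genes rose and 1 fell, beside 10.3% and 16% of all genes tested.

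In iXEN cells in XEN medium 17.7% of all genes tested rose and 14.9% fell against MEF. Bach2 fell (-2.35, SE 0.48, edgeR adjusted p = 0.0112) and Rbx1 rose (1.27, SE 0.30, 0.0176) among 12 regulators. The transferases Gsta4 (1.80, SE 0.44, 0.0208) and Gstp1 (1.34, SE 0.34, 0.0232) led 4 rises among 20 glutathione genes, where 0 fell. Of 14 thioredoxin genes 0 were called. Nnt (-1.79, SE 0.23, 0.00269) and G6pdx (-1.02, SE 0.28, 0.0290) fell and Pgls rose among 9 NADPH genes. Of 16 detoxification genes the glucuronosyltransferase Ugt1a6a fell (-4.69, SE 1.04, 0.0148) and 3 rose, led by the superoxide dismutase Sod1 (1.76, SE 0.45, 0.0230). Ugt1a6a averaged 1.88 CPM in MEF and 0.0608 CPM in these iXEN cells, a level of few counts, so the size of its fall is uncertain. The iron exporter Slc40a1 fell (-6.12, SE 1.02, 0.00561) among 11 heme and iron genes, where 0 rose. These counts moved without iXEN 2 and 9, the libraries with fibroblast transcripts. Then 2 of 19 glutathione genes rose and 6 fell, 0 of 14 thioredoxin genes rose and 2 fell (Txnip and Sesn1), 2 of 9 NADPH genes rose and 1 fell, G6pdx being no longer called, and 3 of 16 detoxification genes rose and 8 fell. Of 11 heme and iron genes 1 rose and 2 fell, and over all genes tested 23% rose and 28.8% fell.

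In XEN cells in XEN medium 23% of all genes tested rose and 24.5% fell against MEF. The ligase subunits Rbx1 (0.86, SE 0.18, edgeR adjusted p = 0.00996) and Cul3 (0.51, SE 0.15, 0.0299) rose among 12 regulators, where 0 fell. Of 20 glutathione genes 4 rose, led by Ggt1 (5.62, SE 0.66, 0.00163), and 2 fell, led by Gpx7 (-10.40, SE 0.88, 0.000587). Both sizes are uncertain, since Ggt1 averaged 0.0933 CPM in MEF and Gpx7 0.0327 CPM in these XEN cells, levels of few counts. Of 14 thioredoxin genes 0 were called. Nnt (-1.59, SE 0.28, 0.00573) and Idh1 (-0.78, SE 0.18, 0.0144) fell and Pgls rose among 9 NADPH genes. Of 16 detoxification genes 2 rose, led by Sod1 (1.41, SE 0.22, 0.00369), and 4 fell, among them Sod3, with 2 counts over the XEN libraries and a ratio of 1083 (exact 95% counting interval 299 to 8952). Slc48a1 (-2.76, SE 0.51, 0.00658) and Fech (-0.73, SE 0.14, 0.00850) fell and Hmox2 rose among 11 heme and iron genes. edgeR called no gene of the 6 lists between iXEN and XEN cells, between media or in the interaction, where it called 0% of all genes. DESeq2 called 9 listed genes between iXEN and XEN cells in ESC medium, all lower in iXEN cells: Gpx7, Gstm1, Gstm2 and Mgst1 of the glutathione list, Pgls of the NADPH list, and Ephx1, Cbr3, Aldh3a1 and Sod3 of the detoxification list. It called 455 of 14359 genes lower there. Of 14 detoxification genes in the edgeR fit 6 lay lower in iXEN cells without overlap, beside 797 of 12944 genes. The XEN libraries of both counts include XEN 1, which held fibroblast transcripts. DESeq2 was not run without it, and the part of these transcripts in the calls was not tested. Between media in iXEN cells DESeq2 called 6 listed genes higher and 1 lower in XEN medium, beside 6.93% and 5.01% of 13709 genes. In the interaction it called 4 listed genes above 0 (Gpx7, Pgls, Ephx1 and Sod3) and 0 below, beside 2.9% and 0.384% of 14861 genes. Both of these comparisons include libraries with fibroblast transcripts, and DESeq2 was not run without them. The part of such transcripts in these calls was not tested. Genes with near-identical copies elsewhere in the genome, which can include Gstp1, Sod1 and Rbx1, have uncertain counts.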

How the data were processed

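RNA of 17 CD-1 mouse libraries was extracted with Trizol and made into libraries with an Illumina TruSeq mRNA kit, per the labels' protocols. The authors deposited whole-number counts per gene for each library; FastQC 0.11.3, Trimmomatic 0.32, TopHat2 2.0.12 and HTSeq 0.6.1 and the build mm9 are named, per the submitters' processing notes, and for order, settings, strand option and annotation the sources used here give nothing. The 5 counter lines of each file (20.8% to 33.1% of its total) were left out. Without a known strand option, reads of overlapping antisense genes cannot be told apart.

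The members and lists were chosen with earlier results of these data known. Each comparison was fitted on all genes of its groups with edgeR 4.0.16 (R 4.3.3): filterByExpr (minimum count 10, minimum total 15), TMM, and the two-sided quasi-likelihood test with Benjamini-Hochberg adjustment at 0.05. The code was tested on simulated data. CPM used TMM factors over all 17 libraries, and log2 CPM a prior count of 2. Of the 21 pairs of libraries within groups, 0 agreed within sampling noise. In a library 3 counts equal 0.0653 to 0.149 CPM, and counting intervals cover counting error only. All 10 members were named; of each other list, the 2 called genes with the smallest adjusted p, with others named where a count was small; and the 5 genes most correlated with Nqo1 and with Hmox1. Alternatives were RLE size factors, no filter, DESeq2 1.42.0, all 17 libraries in 1 fit, a replicate block, leaving out each library, leaving out the libraries with fibroblast transcripts, and leaving out XEN 7 in both media; list counts without the fibroblast-transcript libraries and by DESeq2 were added after seeing the data. The main fits held no block for the number, which entered as an alternative only. In the description of levels, XEN libraries of the same number were read as pairs across media, a pairing that rests on the data. Their correlations of deviations from the group means were 0.24, 0.39 and 0.64, and 4 of 6 libraries correlated best with their own number. XEN 1 in XEN medium correlated more with XEN 2 in ESC medium (0.45) than with XEN 1 there (0.24). iXEN libraries were not read as pairs (0.16, 0.19, 0.13 and -0.06), though 5 of 8 correlated best with their own number.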

Additional observations from a re-analysis of the deposited data

Results flagged for a closer look

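A library far from the other 3 of its group was found in 5 of the 20 sets of 4 iXEN libraries (10 genes in each medium), by Dixon's test; chance flags about 1 in 20. In ESC medium these were Nqo1 in iXEN 1 (2.18 CPM, others 0.813 to 0.882) and Hmox1 in iXEN 6 (316 CPM, others 91.1 to 100.1). In XEN medium they were Gclm (66.9 CPM, others 4.23 to 9.28) and Me1 (536 CPM, others 134 to 198) in iXEN 1, and Srxn1 in iXEN 2 (88.6 CPM, others 3.28 to 15.8).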

How the results depend on the processing

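The number of members called against MEF moved with the setting. The replicate block joins libraries by label number. Against MEF and between iXEN and XEN cells only numbers 1 and 2 are shared. The block values there rest on these numbers alone, with 1 residual degree of freedom. Nothing in the labels pairs such libraries across cell types, and a library of an unshared number adds nothing to the value. In iXEN cells in ESC medium it was 6, and 2 with all 17 libraries in 1 fit (4 to 7 over libraries left out in turn). In XEN cells in ESC medium it was 1, and 0 without a filter, in the joint fit and with the replicate block (0 to 3). In iXEN cells in XEN medium it was 1, 2 in the joint fit, 0 with the block and 5 without the fibroblast-transcript libraries (0 to 3). Without those libraries 23% of 14362 genes tested rose and 28.8% fell. In XEN cells in XEN medium it was 2, 1 in the joint fit and 5 with the block (1 to 5). Between iXEN and XEN cells in ESC medium it was 0, and 2 by DESeq2 (0 to 1). The cause was not tested. Most of these counts stand without the share of all genes called under the same setting, so they are no result about the members. Over all genes, XEN cells in ESC medium gave 3507 calls, 5795 by DESeq2, 1303 with the block and 372 to 6056 over libraries left out; iXEN cells in XEN medium gave 4708, 0 with the block, 7440 without the fibroblast-transcript libraries and as few as 1842 over libraries left out; and XEN cells in XEN medium gave 6830, and as few as 3985. Between iXEN and XEN cells in ESC medium the 0 calls became 5 without a filter, 9 with the block and as many as 49 with a library left out, and between the media in iXEN cells 330 in the joint fit, 1 without the fibroblast-transcript libraries and as many as 416. The block gave 1 call for the interaction. Same-numbered iXEN libraries were not paired, and 5 of 8 correlated best with their own number, against 4 of 6 XEN libraries across media.

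Of 1194 member values under alternatives 93 changed sign; 0 of these had been called, and 2 were called in the alternative (Hmox1 and Gclm, in the report). With the replicate block, log2 values turned for Hmox1 to -0.47 (iXEN cells in ESC medium against MEF), for Srxn1 to -0.63 and Gsr to -0.94 (XEN cells in ESC medium against MEF), for Txnrd1 to 0.18 (iXEN cells in XEN medium against MEF), for Gsr to -0.14 (XEN cells in XEN medium against MEF), for Hmox1 to -0.47, Txnrd1 to 0.21 and Gsr to 0.44 (iXEN against XEN cells in ESC medium), for Nfe2l2 to 0.38, Hmox1 to -0.32 and Gsr to 0.39 (iXEN against XEN cells in XEN medium), for Gsr to 0.04 and Me1 to -0.08 (the media in XEN cells), for Srxn1 to -0.21 (the media in iXEN cells), for Hmox1 to 0.08 (the interaction). With the fibroblast-transcript libraries left out, log2 values turned for Txnrd1 to 0.29 (iXEN cells in XEN medium against MEF), for Nqo1 to -3.62, Srxn1 to -1.89 and Gsr to 0.13 (iXEN against XEN cells in XEN medium), for Hmox1 to 0.12 (the media in XEN cells), for Keap1 to -0.02, Nqo1 to -2.37 and Srxn1 to -1.76 (the media in iXEN cells), for Nqo1 to -0.26 and Srxn1 to -0.04 (the interaction). With no filter, log2 values turned for Txnrd1 to 0.00 (iXEN against XEN cells in XEN medium), for Txnrd1 to 0.02 (the media in XEN cells), for Keap1 to -0.02 (the media in iXEN cells). With XEN 7 left out in both media, log2 values turned for Nfe2l2 to -0.10, Txnrd1 to 0.02 and Gsr to 0.64 (the media in XEN cells), for Me1 to -0.16 (the interaction). Over libraries left out in turn, these ranges crossed 0. For iXEN cells in ESC medium against MEF they were Hmox1 -0.49 to 0.36. For XEN cells in ESC medium against MEF they were Hmox1 -0.72 to 0.16, Txnrd1 -0.20 to 0.14 and Gsr -0.49 to 2.29. For iXEN cells in XEN medium against MEF they were Gclm -1.43 to 0.41, Txnrd1 -0.48 to 0.18 and Gsr -0.32 to 0.74. For XEN cells in XEN medium against MEF they were Keap1 -0.16 to 0.06 and Txnrd1 -0.30 to 0.24. For iXEN against XEN cells in ESC medium they were Hmox1 -0.22 to 0.91, Txnrd1 -0.37 to 0.05 and Gsr -2.46 to 0.31. For iXEN against XEN cells in XEN medium they were Nfe2l2 -0.38 to 0.26, Nqo1 -0.86 to 3.38, Gclm -1.01 to 0.90, Txnrd1 -0.44 to 0.28, Srxn1 -0.96 to 1.39 and Gsr -1.33 to 0.39. For the media in XEN cells they were Nfe2l2 -0.25 to 0.36, Hmox1 -0.69 to 0.12, Gclm -0.09 to 0.49, Txnrd1 -0.26 to 0.28, Gsr -1.57 to 1.55 and Me1 -0.57 to 0.64. For the media in iXEN cells they were Keap1 -0.12 to 0.10, Hmox1 -0.62 to 0.25, Gclm -0.45 to 1.46, Txnrd1 -0.32 to 0.37, Srxn1 -0.81 to 1.33, Gsr -0.06 to 1.18 and Me1 -0.18 to 0.61. For the interaction they were Nfe2l2 -0.49 to 0.09, Hmox1 -0.53 to 0.62, Gclm -0.58 to 1.34, Txnrd1 -0.27 to 0.42, Gsr -0.80 to 2.31 and Me1 -0.40 to 0.94.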
